A study of Mus musculus with 6 samples.

Results

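AP-1 is the family of transcription factors made by the FOS, JUN and ATF proteins, and it is described here in ovarian granulosa cells of mice labelled as double knockouts of the forkhead genes Foxo1 and Foxo3. The genes examined were Jun, Junb, Jund, Fos, Fosb, Fosl1, Fosl2 and Atf3. They were found by taking every probe set whose only gene symbol in the platform annotation was one of these names, which gave 12 of 45037 probe sets and 8 of 18193 genes. A probe set is a group of short probes on the array that reports 1 transcript region. Where a gene had more than 1 probe set, the one with the highest mean over all arrays, called the leading probe set, stands for the gene.

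Granulosa cells, the somatic cells around the oocyte, were measured on 6 Affymetrix arrays in 3 groups of 2. The groups were Foxo1 f/-;Foxo3 f/-; Amhr2-cre mice (Foxo1/3 dKO, called dKO below) at 2 months of age, the same genotype at day 25, and wild type at day 25. Amhr2-cre expresses the Cre recombinase where the receptor for anti-Müllerian hormone is made, so deletion depends on cells that use that gene, and wild type is not described as carrying Cre. The strain background of every group was mixed, from FVB and C57BL/6. Wild-type cells at 2 months were not analysed here, so age and genotype cannot be told apart in the comparison of dKO at 2 months with wild type at day 25. For the same reason, a difference between the dKO ages cannot be parted into knockout and normal ageing. Separate animals are not named in the labels for the 2 arrays of a group; the p-values therefore cover the spread among these samples alone, and that spread may be technical.

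AP-1 proteins bind DNA as pairs joined by a leucine zipper. JUN proteins can pair with each other or with FOS proteins, whereas FOS proteins need a JUN partner. Many of the genes are immediate early genes, switched on within minutes of a signal through MAP kinases, and in the ovary gonadotrophins are known to induce them in granulosa cells. FOXO factors leave the nucleus when insulin signals through PI3K, and their targets in other tissues include genes of stress response and growth control.

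The windows of 250 bases before the RefSeq start are shown for 3 members whose levels took different courses across the groups: Jun, low in the dKO at day 25; Junb, high in the dKO at 2 months; and Fos, whose 3 groups overlapped. Capitals mark the letters found by the search described after them, and each is read 5′ to 3′ on the gene's strand.
Jun, GRCm38.p6 chr4:95052223-95052472, minus strand: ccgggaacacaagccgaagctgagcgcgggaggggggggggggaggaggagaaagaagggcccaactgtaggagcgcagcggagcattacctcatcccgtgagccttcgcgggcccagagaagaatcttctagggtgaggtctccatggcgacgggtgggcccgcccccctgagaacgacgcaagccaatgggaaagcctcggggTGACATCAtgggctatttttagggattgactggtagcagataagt
Junb, GRCm38.p6 chr8:84978749-84978998, minus strand: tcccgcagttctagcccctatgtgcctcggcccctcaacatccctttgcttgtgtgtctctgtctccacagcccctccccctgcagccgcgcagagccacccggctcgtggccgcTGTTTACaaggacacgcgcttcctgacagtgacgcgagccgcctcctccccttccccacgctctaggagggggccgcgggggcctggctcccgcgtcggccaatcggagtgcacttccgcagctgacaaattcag
Fos, GRCm38.p6 chr12:85473640-85473889, plus strand: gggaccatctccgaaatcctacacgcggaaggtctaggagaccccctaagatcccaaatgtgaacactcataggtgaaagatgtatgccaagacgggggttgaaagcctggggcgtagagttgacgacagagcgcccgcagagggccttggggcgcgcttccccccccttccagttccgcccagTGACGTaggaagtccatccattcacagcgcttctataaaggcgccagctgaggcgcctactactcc

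These sequences are from the RefSeq table of build GRCm38.p6, in which 7 of the 8 genes had an entry; Fosl1 is named only. The search, on both strands, used 6 motifs: TGACTCA, the AP-1 site; TGACGTCA, the cAMP response element; TGACGT, its shorter form, which the longer one contains; TGACATCA, known as an AP-1 family site of Jun itself; TGTTTAC, a FOXO site; and the CArG box of serum response factor. Jun held TGACATCA beginning 45 bases before the start, letters found in 2.84% of 32536 distinct windows of the same length. Junb held TGTTTAC beginning 135 bases before the start, found in 3.17% of windows. Fos held TGACGT beginning 66 bases before the start and Atf3 held it on the other strand beginning 8 bases before the start, and 6.50% of windows hold it. The Fosb, Fosl2 and Jund windows held none of the 6. TGACTCA, TGACGTCA and the CArG box, found in 4.45%, 1.56% and 1.48% of windows, were in none of the 7. A match is a run of letters and not a measured binding site, and binding was not measured here.

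The median intensity was 73 or 74 on each array. dKO 2-month replicate 1 stood apart from the rest: its correlation with the other 5 arrays across probe sets was 0.964 to 0.978, against 0.982 to 0.992 among those 5. Foxo1, the targeted gene, had intensities of 126 and 343 in 2-month dKO cells, 904 and 2291 in day 25 dKO cells, and 10319 and 7666 in wild-type cells. The dKO ages thus differed in Foxo1 level without overlap, and Foxo1 level and age cannot be told apart between them. Foxo3 had 2484 and 1872 in dKO at 2 months, 2539 and 3279 in dKO at day 25, and 1632 and 1342 in wild type. Both dKO groups thus lay above wild type without overlap, and these values do not show a loss of Foxo3. Which part of Foxo3 was deleted is not in the labels, and a probe set outside the deleted part checks nothing.

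Across the AP-1 genes, no difference passed the test in any comparison: 0 of 8 had a limma adjusted p under 0.05, where 0.0% of all 18193 genes did. Between the dKO ages the lowest limma adjusted p of any probe set was 0.712, a value that several genes named below share. The values themselves fell into a few courses. Jun was low in the dKO at day 25 and high in the dKO at 2 months, Junb and Fosb were highest on the 2-month arrays, Fosl2 was highest in dKO at 2 months and lowest in wild type, and the Fos arrays of the 3 groups overlapped. Fosl1 and Atf3 kept to a narrow range of intensities, 30 to 37 and 58 to 70 on their leading probe sets. For dKO at 2 months against dKO at day 25, 5 of 8 genes (Jun, Junb, Jund, Fosb and Fosl2) were higher at an unadjusted p under 0.05, where 3.73% of all genes were, and 0 of 8 were lower, where 2.91% were. That count was 3 without either 2-month array, 2 without either day 25 dKO array and 4 without either wild-type array. It was 3, without Fosb and Jund, with a pseudocount of 16 and likewise with array weights. Jun and Junb were among those counted in each of these 6 fits.

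**Figure D1:**
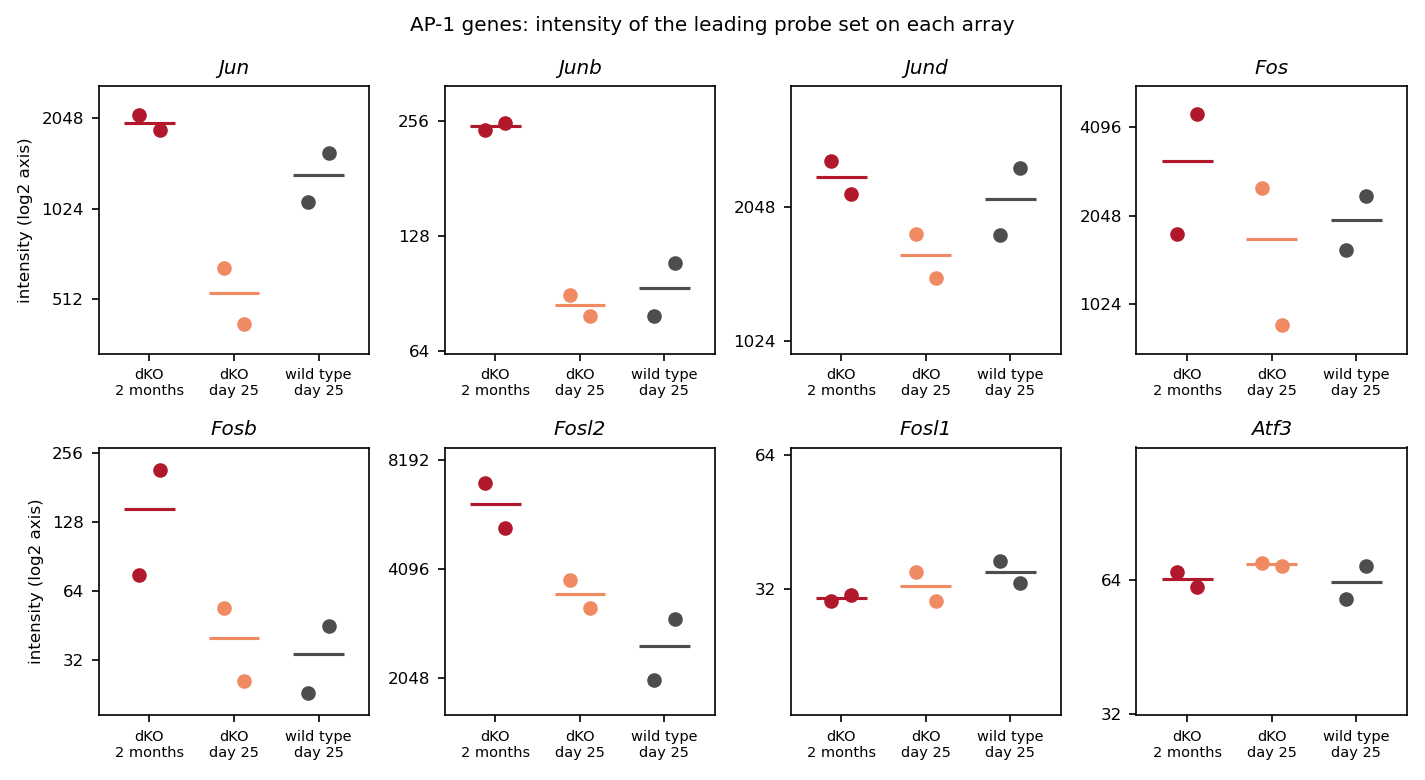
Intensity of the leading probe set of each AP-1 gene (log2 axis, a scale of its own per gene) on the 2 arrays of each group; points are arrays and lines are group means. The 2-month dKO points of Jun, Junb, Fosb and Fosl2 lie above those of both other groups, while the Fos points of all 3 groups overlap.

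Of the JUN genes, Jun encodes the founding member, a strong activator that also acts on its own promoter. Its leading probe set read 2098 and 1865 in dKO at 2 months, 650 and 422 in dKO at day 25, and 1077 and 1574 in wild type at day 25. No groups overlapped: both day 25 dKO arrays lay below both wild-type arrays, and both 2-month arrays lay above all others. The means were 1981.5 ± 165, 536 ± 161 and 1325.5 ± 351 in the same order of groups (SD, n = 2 each). In dKO at day 25 Jun was 2.48-fold lower than in wild type, a log2 difference of -1.31 ± 0.29 (SE) with unadjusted p = 0.00635 and adjusted p = 0.482. It was 3.77-fold higher in dKO at 2 months than at day 25, a log2 difference of 1.92 ± 0.29 with unadjusted p = 0.00127 and adjusted p = 0.712. The day 25 dKO arrays are shared by these 2 comparisons, so their opposite signs rest on the same 2 arrays. Against wild type at day 25, Jun at 2 months had a log2 difference of 0.60 ± 0.29 and adjusted p = 0.436, with 0.33 to 0.88 as each array was left out.

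A further Jun probe set reports the same gene and is no separate replicate. It read 936 and 693 in dKO at 2 months, 336 and 252 in dKO at day 25, and 454 and 529 in wild type. The order of the groups was the same as on the leading probe set, again without overlap. Its log2 differences were -0.75 ± 0.22 for dKO against wild type at day 25, 1.47 ± 0.22 for the dKO ages and 0.72 ± 0.22 for 2-month dKO against wild type, with adjusted p = 0.555, 0.712 and 0.337.

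At day 25, Jun was the 1 member of 8 that was lower in the dKO at an unadjusted p under 0.05, where 3.44% of all genes were, and 0 of 8 were higher, where 4.89% were. Jund joined it without wild-type replicate 1, which made the lower count 2, and Fosl2 was higher without wild-type replicate 2, which made the higher count 1. By position alone, Jun was lower without overlap (19.5% of all genes were) and Fosl2 was higher without overlap (26.4% were). The 1 member of 8 in each direction is near those shares, and nothing is read from it.

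Junb encodes a JUN protein with weaker activating power that can oppose Jun on some targets. It read 243 and 253 in dKO at 2 months, 90 and 79 in dKO at day 25, and 79 and 109 in wild type. Both 2-month arrays lay above the other 4, and the groups at day 25 overlapped. The 2-month replicates differed by 1.04-fold, where the median gene differed by 1.19-fold between them. The log2 difference between the dKO ages was 1.54 ± 0.18 (SE), 2.92-fold higher at 2 months, with unadjusted p = 0.000442 and adjusted p = 0.712. Against wild type at day 25 it was 1.41 ± 0.18, 2.65-fold higher at 2 months, with unadjusted p = 0.000674 and adjusted p = 0.152. For dKO against wild type at day 25 it was -0.14 ± 0.18, with a 95% interval from -0.61 to 0.34 and adjusted p = 0.870. That last sign turned without wild-type replicate 2, to 0.09.

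Jund encodes the JUN protein that is present in resting cells of many tissues. It read 2597 and 2198 in dKO at 2 months, 1782 and 1418 in dKO at day 25, and 1770 and 2513 in wild type. The 2-month arrays lay above the day 25 dKO arrays, while wild type overlapped both dKO groups. The log2 difference between the dKO ages was 0.59 ± 0.23 (SE), with unadjusted p = 0.0499 and adjusted p = 0.712. It was -0.41 ± 0.23 for dKO against wild type at day 25 (adjusted p = 0.684, and -0.66 to -0.15 as each array was left out) and 0.18 ± 0.23 for 2-month dKO against wild type (adjusted p = 0.748). The other Jund probe set read 21 to 26 on the 6 arrays.

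Of the FOS genes, Fos encodes the protein whose rise after a stimulus is the classic immediate early response. It read 1779 and 4530 in dKO at 2 months, 2538 and 871 in dKO at day 25, and 1573 and 2393 in wild type. All 3 groups overlapped. The replicates differed by 2.55-fold in dKO at 2 months, 2.91-fold in dKO at day 25 and 1.52-fold in wild type, and 95.6%, 99.5% and 92.7% of all genes differed less between the same pairs of arrays. The log2 difference was -0.38 ± 0.69 (SE) for dKO against wild type at day 25, with a 95% interval from -2.18 to 1.41 and adjusted p = 0.909. It was 0.93 ± 0.69 for the dKO ages (adjusted p = 0.737) and 0.55 ± 0.69 for 2-month dKO against wild type (adjusted p = 0.749). With each array left out the day 25 value ran from -1.15 to 0.39 and turned positive without dKO day 25 replicate 2. The value between the dKO ages ran from 0.16 to 1.70, and that of dKO at 2 months against wild type from -0.13, without dKO 2-month replicate 2, to 1.22.

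Fosb encodes a close relative of Fos that is likewise induced by stimuli. It read 75 and 216 in dKO at 2 months, 54 and 26 in dKO at day 25, and 23 and 45 in wild type. Both 2-month arrays lay above the other 4, though they differed by 2.86-fold from each other, and the groups at day 25 overlapped. All day 25 readings of Fosb lay below the array median intensity of 73 or 74, so its differences start from dim values. The log2 difference was 1.74 ± 0.67 (SE) between the dKO ages, with unadjusted p = 0.0495 and adjusted p = 0.712, and 1.95 ± 0.67 for 2-month dKO against wild type, with unadjusted p = 0.0341 and adjusted p = 0.354. Leaving out dKO 2-month replicate 2 gave 0.98 and 1.19, while leaving out its replicate 1 gave 2.49 and 2.71. At day 25 the difference was 0.21 ± 0.67 (adjusted p = 0.950), with -0.30 to 0.73 as each array was left out.

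Fosl2 encodes FRA2, a FOS protein without the strong activating region of Fos. It read 7114 and 5334 in dKO at 2 months, 3814 and 3205 in dKO at day 25, and 2024 and 2991 in wild type. The 3 groups did not overlap, with dKO at 2 months highest and wild type lowest, although dKO day 25 replicate 2 lay close to wild-type replicate 2. The log2 difference was 0.51 ± 0.25 (SE) for dKO against wild type at day 25 (unadjusted p = 0.105, adjusted p = 0.664), and 0.23 to 0.79 as each array was left out. It was 0.82 ± 0.25 for the dKO ages (unadjusted p = 0.0248, adjusted p = 0.712) and 1.32 ± 0.25 for 2-month dKO against wild type (unadjusted p = 0.00380, adjusted p = 0.226). The other Fosl2 probe set read 107 to 120 on all arrays, with log2 differences between -0.08 and 0.06. Over the mean of both probe sets the 3 differences were 0.21, 0.44 and 0.65.

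Fosl1, which encodes FRA1, read 30 and 31 in dKO at 2 months, 35 and 30 in dKO at day 25, and 37 and 33 in wild type on its leading probe set. Its other probe set ran the opposite way, with 34 and 31, 30 and 28, and 27 and 25 in the same order of groups. Both are dim, and no direction is given for the gene. Atf3, an ATF family member that is induced by stress and often represses its targets, read 67 and 62 in dKO at 2 months, 70 and 69 in dKO at day 25, and 58 and 69 in wild type. Its log2 differences lay between -0.11 and 0.13, with adjusted p from 0.800 to 0.941.

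**Figure D2:**
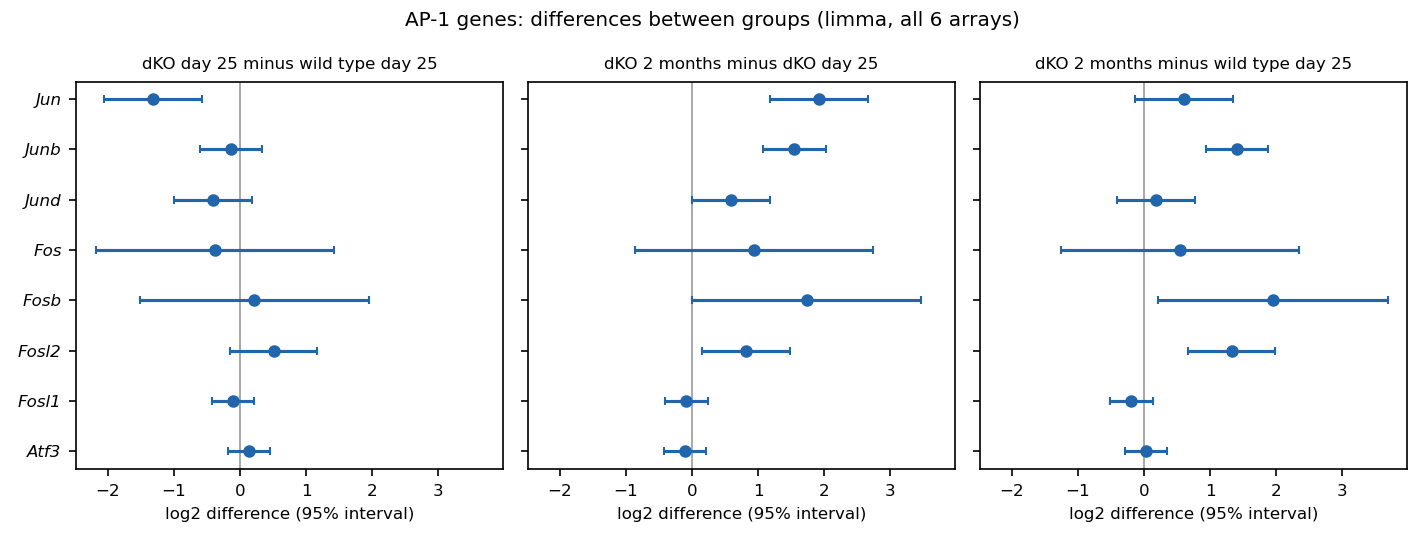
Log2 differences of the 8 AP-1 genes (points, horizontal axis) with 95% intervals from limma, for dKO at day 25 minus wild type, dKO at 2 months minus dKO at day 25, and dKO at 2 months minus wild type. The interval of Jun lies below 0 at day 25 and above 0 between the dKO ages; that of Fos spans 0 in all 3; none passed after adjustment over all probe sets.

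For dKO at 2 months against wild type at day 25, 3 of 8 genes (Junb, Fosb and Fosl2) were higher at an unadjusted p under 0.05, where 9.54% of all genes were, and 0 of 8 were lower, where 5.38% were. The count was 2 without either wild-type array, either day 25 dKO array or dKO 2-month replicate 2. By position, Jun, Junb, Fosb and Fosl2 (4 of 8) were higher without overlap, where 26.6% of all genes were. The leading Fosl1 probe set was lower without overlap, where 17.3% of all genes were, but its other probe set was higher without overlap. Between the dKO ages 5 of 8 were higher without overlap and Atf3 was lower, where 19.7% and 17.0% of all genes were. The median log2 difference of the 8 genes was 0.87 for the dKO ages, 0.58 for 2-month dKO against wild type and -0.12 at day 25, beside 0.02, 0.04 and 0.03 over all genes.

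Within groups, Fos, Fosb and Junb shared the order of their replicates, and so did Jun, Jund, Fosl2 and Atf3. Fos, Fosb and Junb were higher on replicate 2 of the dKO at 2 months, replicate 1 of the dKO at day 25 and replicate 2 of wild type. Jun, Jund, Fosl2 and Atf3 were higher on replicate 1 of both dKO groups and replicate 2 of wild type. The leading Fosl1 probe set had neither order. The places of Junb and Atf3 rest on near ties, 1.04-fold between the 2-month arrays for Junb and 1.01-fold between the day 25 dKO arrays for Atf3. The share of all genes with each order was not computed, so nothing is read from the orders. Pearson's r on the log2 scale over the 6 arrays was 0.834 between Fos and Fosb and 0.929 between Jun and Jund. For Junb, r was 0.876 with Fosb, which shared its order, and 0.869 with Fosl2, which did not. Each r is a description, since the 6 points share the differences between groups. Fos and Jun had r = 0.626.

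The genes closest to each member in level over the 6 arrays were then named among 4120 genes with a mean intensity of at least 100 and an SD of at least 0.3 (log2). Each r is the highest among these candidates over only 6 arrays, and describes likeness of course alone. For Jun they were Ms4a4d (r = 0.937), Jund (0.929) and Pnpt1 (0.918), which encodes a mitochondrial RNA-degrading enzyme. For Junb they were Aqp2 (0.985), Chmp1b (0.983) and Aqp5 (0.977). Aqp2, a water channel, read 871 and 864 in dKO at 2 months, 128 and 163 in dKO at day 25, and 126 and 188 in wild type, so it shared with Junb the gap between the 2-month arrays and the other 4. For Fosl2 they were Psmb10 (0.997), a subunit of the immunoproteasome, Smtn (0.991) and Slc22a5 (0.991). For Fosb they were Pparg (0.955), a nuclear receptor that granulosa cells are known to express, Mblac2 (0.940) and Pak3 (0.925). For Fos they were Steap3 (0.940), Arhgap27 (0.876) and Ier3 (0.869), itself an immediate early gene. For Jund they were Herc6 (0.962), Mirg (0.943) and Jun. Fosl1 and Atf3 varied by an SD of only 0.12 and 0.11 (log2), and their closest genes were Pdk1 (0.974) and Prickle2 (0.947).

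Other immediate early genes, which respond to the same signals as Fos and Jun, were measured for 21 of 23 listed genes. At an unadjusted p under 0.05, 8 were higher at 2 months than at day 25 in the dKO and 0 were lower, with a median log2 difference of 0.58, beside 3.73% higher, 2.91% lower and a median of 0.02 over all genes. The higher count was 5 without dKO 2-month replicate 1 and 9 without replicate 2. Btg2, an antiproliferative gene, read 1826 and 1650 in dKO at 2 months, 617 and 820 in dKO at day 25, and 651 and 927 in wild type. Ier2 read 786 and 1054 in dKO at 2 months, 417 and 337 in dKO at day 25, and 440 and 527 in wild type. Like Junb, both genes were highest on the 2-month arrays, and their adjusted p between the dKO ages was 0.712, the lowest of any probe set there. For dKO at 2 months against wild type, 8 were higher and 2 lower, where 9.54% and 5.38% of all genes were, and the higher count was 5 without wild-type replicate 1 and 3 without wild-type replicate 2.

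At day 25, 0 of these 21 genes were higher and 2 were lower in the dKO at an unadjusted p under 0.05, with a median of -0.13, beside 4.89% higher, 3.44% lower and a median of 0.03 over all genes. The lower count was 1 without dKO day 25 replicate 2, and the higher count was 1 without either day 25 dKO array. Klf6, a zinc finger transcription factor, read 435 and 413 in dKO at 2 months, 273 and 296 in dKO at day 25, and 579 and 619 in wild type. The dKO minus wild type value at day 25 was -1.07 ± 0.10 (log2, SE), with adjusted p = 0.367. As with Jun, the day 25 dKO arrays were lowest, but unlike Jun the 2-month arrays stayed below wild type. Myc, a growth regulator, read 235 and 488 in dKO at 2 months, 547 and 711 in dKO at day 25, and 1425 and 1102 in wild type, the reverse of the order of Fosl2. No gene of this list passed over all probe sets in any comparison.

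The phosphatases that switch MAP kinases off had all 10 members measured. At day 25, an unadjusted p under 0.05 was found for 2 higher and 1 lower in the dKO, with a median log2 difference of 0.48, beside 4.89%, 3.44% and a median of 0.03 over all genes. Dusp1, which removes phosphate from the kinases that act on JUN and FOS, read 586 and 729 in dKO at 2 months, 503 and 763 in dKO at day 25, and 327 and 270 in wild type. The 4 dKO arrays thus lay above both wild-type arrays, a log2 difference of 1.06 ± 0.25 (SE) at day 25 with adjusted p = 0.498. Dusp2 read 67 and 78 in dKO at 2 months, 89 and 114 in dKO at day 25, and 65 and 54 in wild type. Dusp4, dim on all arrays, read 26 and 26, 26 and 25, and 35 and 43 in the same order of groups. Comparing the dKO ages, 0 were higher and 1 lower, where 3.73% and 2.91% of all genes were, with a median of -0.05. In dKO at 2 months against wild type 2 were higher and 1 lower, where 9.54% and 5.38% of all genes were, with a median of 0.11.

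Of the kinases and factors upstream of AP-1, 18 of 23 were measured, with median log2 differences of -0.02 at day 25, 0.12 for the dKO ages and 0.04 for 2-month dKO against wild type. At day 25 an unadjusted p under 0.05 was found for 0 higher and 2 lower, where 4.89% and 3.44% of all genes were. Mapk9, which encodes the JUN kinase JNK2, read 452 and 457 in dKO at 2 months, 370 and 430 in dKO at day 25, and 538 and 497 in wild type. Prkcd, a protein kinase C, read 2286 and 2353 in dKO at 2 months, 2157 and 2441 in dKO at day 25, and 3343 and 3113 in wild type, so all 4 dKO arrays lay below wild type. Srf, the factor that binds the CArG box of Fos, read 578 and 601 in dKO at 2 months, 490 and 502 in dKO at day 25, and 447 and 452 in wild type. Its log2 difference was 0.39 ± 0.09 (SE) for dKO at 2 months against wild type, adjusted p = 0.262. The dKO ages gave 1 higher and 0 lower, where 3.73% and 2.91% of all genes were, and 2-month dKO against wild type gave 2 higher and 2 lower, where 9.54% and 5.38% were. Each of these counts is of at most 2 genes, and nothing is read from them.

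Other factors with a basic leucine zipper, some of which pair with AP-1 proteins, were measured for 24 of 27 genes. At an unadjusted p under 0.05, 1 was higher and 3 lower in the dKO at day 25, 3 were higher and 1 lower between the dKO ages, and 5 were higher and 1 lower in 2-month dKO against wild type. Over all genes the shares higher and lower were 4.89% and 3.44%, 3.73% and 2.91%, and 9.54% and 5.38% in these comparisons. Creb1, which binds the cAMP response element, read 974 and 847 in dKO at 2 months, 738 and 702 in dKO at day 25, and 1119 and 960 in wild type. Cebpb, needed in granulosa cells for luteinization, read 2670 and 2464 in dKO at 2 months, 1133 and 2012 in dKO at day 25, and 2748 and 2632 in wild type. Both were thus lowest in the dKO at day 25, as Jun was. Batf3, which pairs with JUN proteins, ran the other way with 128 and 109 in dKO at 2 months, 160 and 161 in dKO at day 25, and 102 and 123 in wild type. For 2-month dKO against wild type, the genes of smallest p were Creb3, Batf2 and Ddit3. Their 3 groups lay apart in the order of Fosl2. Creb3 read 2139 and 1817 in dKO at 2 months, 1647 and 1434 in dKO at day 25, and 1085 and 1326 in wild type. Between the dKO ages, Crem and Cebpd were also among those of smallest p, both higher at 2 months without overlap.

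Genes that earlier work reports as AP-1 targets, known mostly from other tissues, were measured for 26 of 29 genes. For dKO at 2 months against wild type 7 had higher and 1 had lower values at an unadjusted p under 0.05, with a median of 0.24, where 9.54% and 5.38% of all genes were higher and lower. For the dKO ages 2 were higher and 0 lower (median 0.21), where 3.73% and 2.91% of all genes were. At day 25, 2 were higher and 1 lower (median 0.12), where 4.89% and 3.44% were. Cd44, a hyaluronan receptor, read 200 and 221 in dKO at 2 months, 102 and 116 in dKO at day 25, and 85 and 74 in wild type. Its log2 difference was 1.40 ± 0.13 (SE) for dKO at 2 months against wild type, with unadjusted p = 0.000153 and adjusted p = 0.138. Timp1, an inhibitor of metalloproteinases, read 1243 and 1159 in dKO at 2 months, 1057 and 808 in dKO at day 25, and 656 and 739 in wild type. Cd44 and Timp1 followed the order of Fosl2, with the 3 groups apart. Ccnd1, the cyclin D1 gene, read 192 and 163 in dKO at 2 months, 124 and 161 in dKO at day 25, and 83 and 106 in wild type. The lower member at day 25 was Vim, an intermediate filament gene, with 3518 and 2841 in dKO at 2 months, 2613 and 2432 in dKO at day 25, and 3805 and 3179 in wild type. The lower member in dKO at 2 months against wild type was Lox, which encodes a collagen cross-linking enzyme and was named after its values were seen. Lox read 83 and 132 in dKO at 2 months, 359 and 174 in dKO at day 25, and 794 and 308 in wild type, a log2 difference of -2.23 between dKO at 2 months and wild type with adjusted p = 0.302. Lox and Vim thus ran against the direction of Cd44, Timp1 and Ccnd1 in those comparisons. None of the 5 lists had a member with an adjusted p under 0.05 in any comparison.

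**Figure D3:**
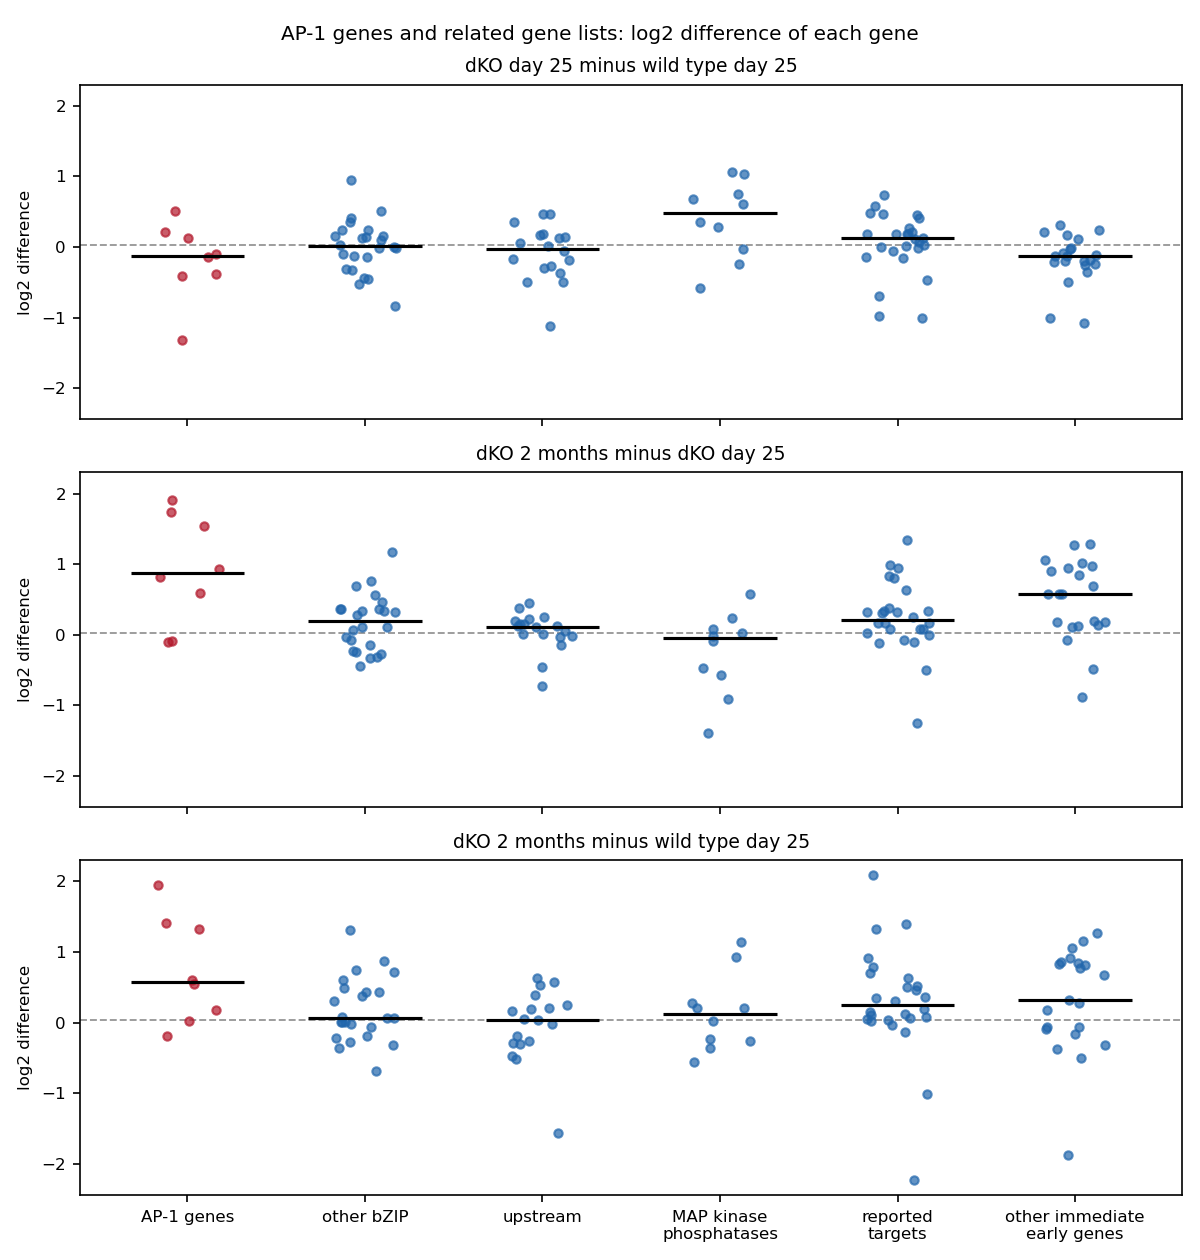
Log2 difference of each gene (points, vertical axis) for the 8 AP-1 genes in red and for the 5 related gene lists in blue, in the 3 comparisons; black bars are list medians and the dashed line is the median of all genes. Between the dKO ages the medians of the AP-1 genes and the other immediate early genes are 0.87 and 0.58, beside 0.02 over all genes.

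Markers of other ovarian cells differed between the same arrays. AP-1 genes are used in many cell types, and in bulk samples fewer cells of a type and less RNA per cell cannot be told apart. The summed intensity of 10 granulosa markers was 101795 and 85857 in dKO at 2 months, 97822 and 90237 in dKO at day 25, and 84951 and 95758 in wild type, and the groups overlapped. Single markers went both ways, with 4 higher and 6 lower at 2 months than at day 25 in the dKO. At an unadjusted limma p under 0.05, 1 was higher and 2 were lower there, where 3.73% and 2.91% of all genes were. Against wild type, 1 was likewise higher and 2 lower in dKO at 2 months, where 9.54% and 5.38% were. Leukocyte markers (13) summed to 17684 and 5558 in dKO at 2 months, 9126 and 5096 in dKO at day 25, and 1936 and 3449 in wild type. All 13 had higher means in dKO at 2 months than in either other group, and 12 of 13 were higher in dKO than in wild type at day 25. Oocyte markers (11) summed to 5126 and 30777 in dKO at 2 months, 39467 and 58168 in dKO at day 25, and 27270 and 16447 in wild type. All 11 were higher in dKO than in wild type at day 25 and lower at 2 months than at day 25 in the dKO. Endothelial markers (9) summed to 2830 and 1510 in dKO at 2 months, 1006 and 1430 in dKO at day 25, and 780 and 955 in wild type, and all 9 had higher means in dKO at 2 months than in either other group. All 9 were also higher in dKO than in wild type at day 25.

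Theca markers (6) summed to 46929 and 38205 in dKO at 2 months, 16250 and 29897 in dKO at day 25, and 21112 and 24255 in wild type, and 4 of 6 had higher means at 2 months than at day 25 in the dKO. The genes of this list were Cyp17a1, Cyp11a1, Star, Ptch1, Gli1 and Hsd3b1, and which cells their transcripts came from was not tested. Stromal and smooth muscle markers (11) summed to 51030 and 28067, 30769 and 37948, and 25453 and 17705 in the same order of groups, and 9 of 11 were higher in dKO at 2 months than in wild type. All 11 were higher in dKO than in wild type at day 25, and 7 were higher and 4 lower between the dKO ages. Surface epithelium markers (6) summed to 4392 and 3374, 2674 and 3191, and 2521 and 2544, and 6 of 6 were higher at 2 months than at day 25 in the dKO. No marker was listed at 0 on any array. Leukocyte markers were highest and oocyte markers lowest on dKO 2-month replicate 1, and theca markers were higher on both 2-month arrays than on the other 4. With that replicate left out, the log2 difference between the dKO ages was 1.57 for Junb, 1.83 for Jun and 0.61 for Fosl2. It was 2.49 for Fosb, and that of Jund ran from 0.42 to 0.75 as each array was left out. These values cannot part cell types from AP-1 levels, since theca markers stayed higher on the 2-month array that remained. The part of the leukocyte, endothelial, theca, stromal, oocyte and surface epithelium markers in these values was not tested.

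**Figure D4:**
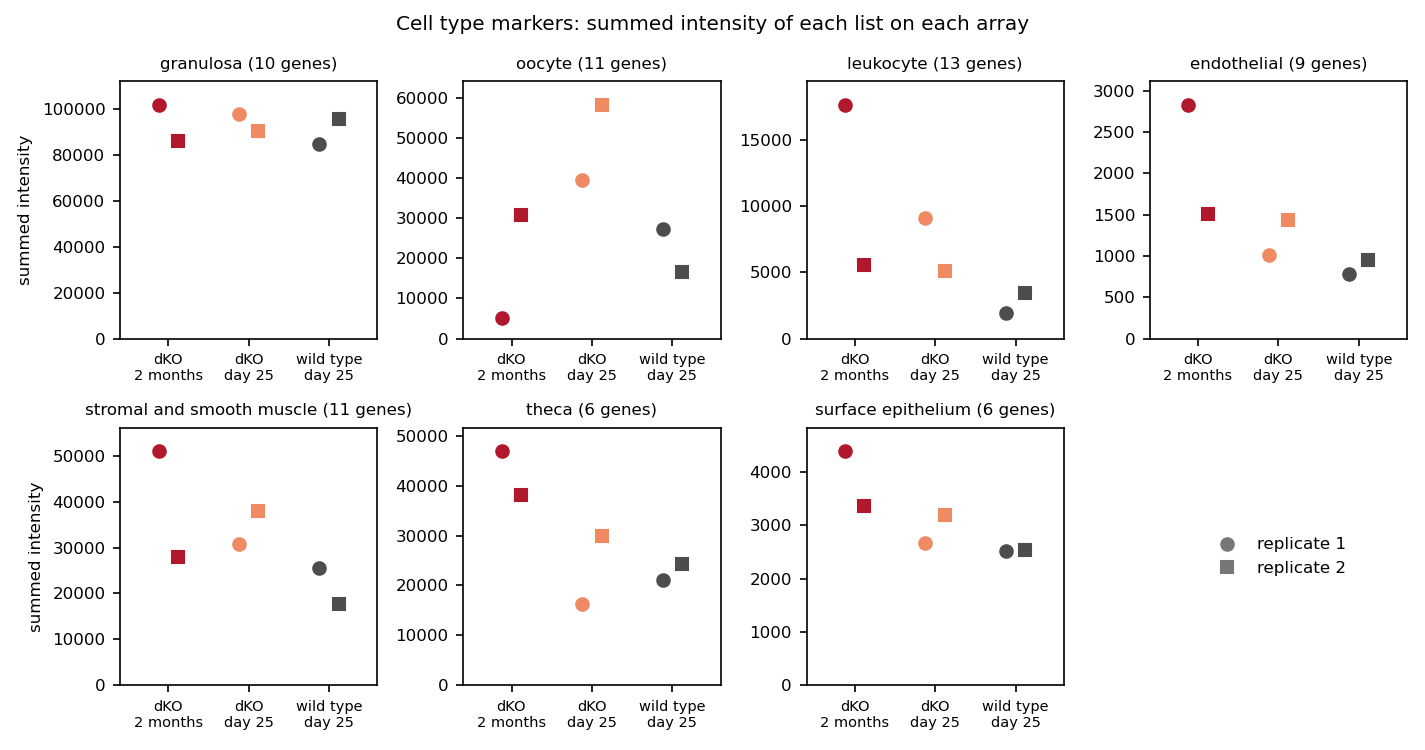
Summed intensity (vertical axis, from 0) of 7 lists of cell type markers on each array, with circles for replicate 1 and squares for replicate 2 of each group. The sums of the granulosa markers lie close together, while those of the leukocyte markers are highest and those of the oocyte markers lowest on dKO 2-month replicate 1.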

How the data were processed

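Biotin-labelled RNA of mouse granulosa cells was hybridised to 1 array for each sample. Per the submitters' processing notes the authors used affy and RMA, and deposited whole-number intensity values on a linear scale; versions and genome build are not given in the sources used here. RMA gives the arrays like distributions, which would hide a shift shared by most genes.

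The 64 AFFX controls among 45101 probe sets were not fitted. Values were taken as log2(value + 1), on which scale folds of dim genes are understated. A single limma fit (R 4.3.3, limma 3.58.1) of all 6 arrays with a mean per group and 3 residual degrees of freedom gave 3 two-sided contrasts. Adjusted p-values are Benjamini-Hochberg values over 45037 probe sets, with a threshold of 0.05. In the platform annotation, which can be old, 34945 of these had 1 gene symbol, 932 had several and 9160 had none; all 8 AP-1 symbols matched the RefSeq gene table. Counts over genes use the leading probe sets. The fit was tested on simulated data with independent noise and planted differences. That setting lacks the outlying array and the marker differences of these arrays, so the test does not cover them.

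The AP-1 genes, the 5 gene lists and the 7 marker lists were chosen with earlier results of these data known. All AP-1 genes are named, with up to 3 genes of smallest p per list and comparison and the 3 genes of closest course per member. Genes of a list with no probe set of a single symbol were not analysed here. No filter on dim values was used; 7 of 8 members had a mean of at least 50. The number of arrays limits the precision, and the smallest p of an exact permutation test with 2 arrays in each group is 0.333. Alternatives covered scaling, pseudocount, filters, spread model, array weights, the arrays fitted, the replicate block, probe set choice, threshold and leaving out each array.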

Additional observations from a re-analysis of the deposited data

How the results depend on the processing

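In each of the 3 comparisons 0 of the 8 AP-1 genes passed under each alternative that kept both arrays of a group, and 0 of all probe sets did. The 0 of 8 is thus no trait of these genes. The lowest adjusted p of any member was 0.0983, for Junb in dKO at 2 months against wild type with probe sets of mean intensity under 50 left out. With the replicate block the count was also 0 in each comparison, as it was with the wild-type numbers swapped in a crossed block that was added after seeing the data. The deviations of same-numbered arrays correlated at -0.16 for dKO and wild type at day 25, 0.06 for the dKO ages and -0.21 for 2-month dKO and wild type. Same-numbered arrays thus did not deviate together across probe sets. These values cannot tell whether the samples were processed in pairs. The count of AP-1 genes higher between the dKO ages at an unadjusted p under 0.05 was 5 and became 3 with a pseudocount of 16, 3 with array weights and 2 with the replicate block. The share of all genes was 3.73% in the main fit and was not computed for these alternatives. Of 405 recomputed log2 differences, 392 kept their sign and 13 turned. Many of the 392 had no way to turn. The dim filter, the other spread model, array weights, the fit of 4 arrays and the replicate blocks left log2 differences unchanged. They altered only the errors and p-values. Dropping an array from outside a comparison likewise cannot move its log2 difference. The 392 is therefore no measure of stability. Over the mean of both probe sets Fosl1 turned to 0.023 for dKO against wild type at day 25, 0.037 for the dKO ages and 0.060 for 2-month dKO against wild type, since its probe sets disagree. The other 10 turns came from leaving out 1 array. For dKO against wild type at day 25 the ranges were -1.15 to 0.39 for Fos, -0.30 to 0.73 for Fosb, -0.37 to 0.093 for Junb and -0.21 to 0.0022 for Fosl1. Between the dKO ages Fosl1 ranged from -0.19 to 0.023. For dKO at 2 months against wild type Fos ranged from -0.13 to 1.22, Jund from -0.073 to 0.43 and Atf3 from -0.10 to 0.15. Between the dKO ages Jun ranged from 1.60 to 2.23 and Junb from 1.45 to 1.64. These fits take the spread of a group left with 1 array from the other groups.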
